A study of Homo sapiens with 10 samples.

Results

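Laminins are the cross-shaped glycoproteins that build the sheet of the basement membrane. Each laminin molecule is a trimer of 1 alpha, 1 beta and 1 gamma chain, and the alpha chain carries most of the sites that integrins and dystroglycan on the cell surface bind. In the brain, laminins lie chiefly around blood vessels, and glioma cells in culture make and use laminin as a substrate for adhesion and movement. Described here are the transcripts of 9 laminin chains, LAMA1, LAMA2, LAMA3, LAMA4, LAMA5, LAMB1, LAMB2, LAMB3 and LAMC1, out of 34567 genes in the deposited table and 12 laminin chains listed there. They were taken by gene name in both cell lines, and the family was selected on LAMA5, whose level fell in both perturbed lines. The values of LAMA5 in those 2 comparisons are therefore a description and carry no test.

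The study examined MEOX2, a homeobox transcription factor, in human glioma lines by poly(A) RNA sequencing of 10 libraries. SNB19 cells received a scramble siRNA (NC, 3 libraries) or an siRNA against MEOX2 (siMEOX2, 3 libraries), delivered by lipid transfection. U87 cells carried a lentiviral empty vector (EV, 2 libraries) or a lentiviral MEOX2 construct (OE, 2 libraries), as a line put under drug selection. All cells were grown in DMEM with serum, and each library held 12533775 to 16560324 counts. The labels do not say which of the study's siRNAs against MEOX2 was used, nor whether replicates were separate cultures, so tests measure the spread between these libraries. The treatment field of the U87 libraries numbers the constructs MEOX3, MEOX4 and MEOX5 in some entries, and groups were taken from the titles. The titles of both OE libraries carry the same label in brackets, MEOX2 OE-2, so the leading part of each title was used.

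MEOX2 itself followed the titles. In SNB19 its counts were 249, 224 and 275 in NC and 54, 40 and 49 in siMEOX2, a log2 fold change of -2.41 (SE 0.14, adjusted p = 1.35e-11). In U87 it had 0 counts in both EV libraries and 4999 and 5308 in OE, at least 3835-fold higher against a floor of 3 counts over the EV group. The 2 manipulations thus start from different baselines: SNB19 expressed MEOX2 at 6.01 to 7.09 FPKM, and U87 had no read of it. FPKM is the count divided by the length of the gene model and by the library total, and it is the scale used for every comparison of levels between genes.

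EV replicate 1 stood apart from the other U87 libraries, and this touches every laminin value in U87. Its log2 CPM correlated at 0.818 with EV replicate 2, against 0.995 between the OE replicates, and ribosomal protein genes took 12.9% of its counts against at most 4.60% in the other 3. The difference between the EV replicates ran with gene length: the median log2 difference was 1.42 for genes of up to 1000 bases and -1.44 for genes over 16000 bases. Laminin gene models are long, from 4688 bases for LAMB3 to 15872 for LAMA1, and all 9 members read lower in EV replicate 1 than in replicate 2. LAMA5 was lower by 1.28 on the log2 scale there, near the median of -1.37 for the 237 genes within 10% of its length. LAMC1 (-1.98) and LAMA3 (-2.01) fell below the lower quartiles of genes of their length, -1.46 and -1.80, while LAMA4 (-0.21) lay above the upper quartile of -0.71. Fold changes of members that involve U87 are therefore also given without that library, against EV replicate 2 alone. What produced the difference was not tested.

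**Figure D1:**
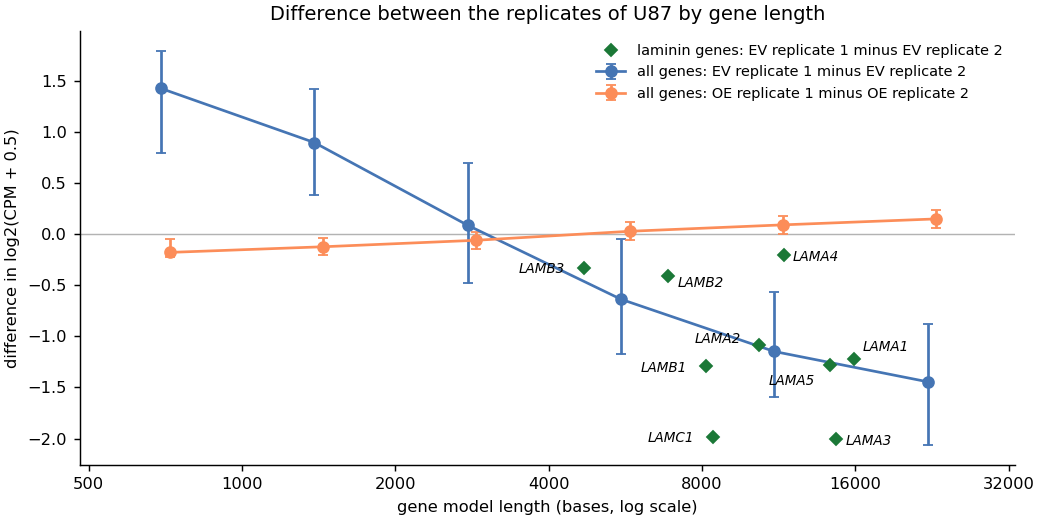
Difference in log2(CPM + 0.5) between the 2 EV replicates (blue) and the 2 OE replicates (orange) of U87 against gene model length in bases on a log axis; circles are medians of length classes, drawn at the middle of each class, and bars are quartiles. Green diamonds mark the 9 laminin genes for the EV replicates, all below 0 and most below -1, while the OE medians stay between -0.18 and 0.15.

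The promoters of LAMA5 and LAMB3 are shown because these 2 genes had the largest fold changes in SNB19 among the 8 members that passed the filter on low counts, in opposite directions. Sequences are from RefSeq on GRCh38.p14, read 5′ to 3′ on the minus strand, and end at the base before the start of the gene in GENCODE 29. A RefSeq window was at hand for 8 of the 9 members, all but LAMA1. Capitals mark GGGCGG or its complement, the core of the GC box that Sp factors bind, and TAAT, the core shared by many homeobox factor sites, in either orientation.
LAMA5, chr20:62367313-62367562: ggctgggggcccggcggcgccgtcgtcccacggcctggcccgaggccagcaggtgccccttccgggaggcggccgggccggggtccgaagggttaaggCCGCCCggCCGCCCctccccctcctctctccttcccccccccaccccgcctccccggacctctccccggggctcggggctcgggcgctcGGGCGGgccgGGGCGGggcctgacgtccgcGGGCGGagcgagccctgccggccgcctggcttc
LAMB3, chr1:209652467-209652675: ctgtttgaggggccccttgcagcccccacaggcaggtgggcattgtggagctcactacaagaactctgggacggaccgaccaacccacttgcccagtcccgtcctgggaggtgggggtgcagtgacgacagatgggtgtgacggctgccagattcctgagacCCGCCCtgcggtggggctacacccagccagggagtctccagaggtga

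The LAMA5 stretch of 250 bases was 82.8% G and C, held 32 CpG dinucleotides and 5 copies of GGGCGG, and held no TAAT. The median over all 35116 promoter windows of the same length was 58.0% G and C with 11 CpG. The LAMB3 stretch of 209 bases was 64.6% G and C and had 1 GGGCGG and no TAAT. Among all windows 42.6% held GGGCGG, 47.4% held TAAT and 4.3% held the longer homeobox motif TAATTA, which no laminin window held. TATAAA, the TATA box, was in 10.7% of all windows and in none of the laminin windows. Among the other members, LAMC1 resembled LAMA5 in its window (79.6% G and C, 32 CpG, 3 copies of GGGCGG), and TAAT was present in the windows of LAMA2, LAMA3 and LAMB1. A match or its absence describes these letters in this window only.

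In unperturbed SNB19 the laminin transcripts fell into a high and a low tier. LAMB3 was the most abundant at 114 FPKM ± 0.474 (SD, n = 3), followed by LAMC1 at 61.8 ± 2.48, LAMA5 at 50.5 ± 0.567, LAMB2 at 46.1 ± 1.01 and LAMB1 at 30.1 ± 0.789. No library of one of these 5 overlapped a library of its neighbour in that order. The other 4 alpha chains were far below: LAMA4 at 0.222 ± 0.0400, LAMA3 at 0.214 ± 0.0520, LAMA2 at 0.108 ± 0.0395 and LAMA1 at 0.00949 ± 0.00559 FPKM. LAMA4 and LAMA3 overlapped between libraries, and LAMA1 rested on 1 to 4 reads a library. LAMA5 made up 98.9% ± 0.114 (SD, n = 3) of the summed alpha chain FPKM in NC.

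In U87 the order was less certain because of the EV replicates. LAMC1 was at 19.3 and 76.6 FPKM, LAMB1 at 15.5 and 38.2, LAMB2 at 20.1 and 26.7, LAMB3 at 19.2 and 24.1 and LAMA5 at 8.68 and 21.2, in EV replicates 1 and 2. These 5 overlapped each neighbour in the order of their means. LAMA4 followed at 1.00 and 1.16 FPKM, LAMA1 at 0.265 and 0.659, LAMA3 at 0.143 and 0.678 and LAMA2 at 0.191 and 0.460. LAMA5 was the chief alpha transcript here too, at 84.4% and 87.7% of alpha chain FPKM in the 2 EV libraries.

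**Figure D2:**
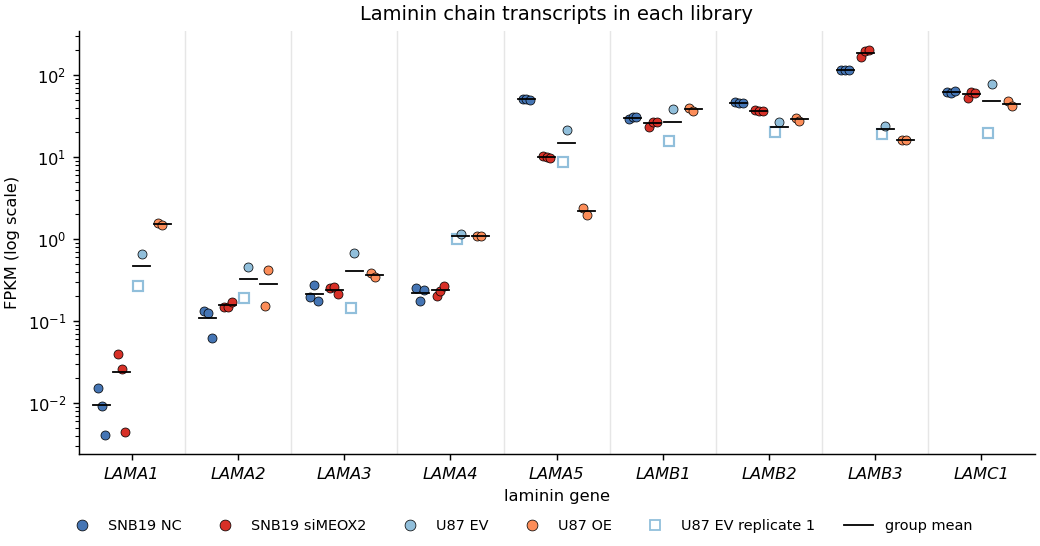
FPKM of the 9 laminin genes on a log axis, 1 point per library, with the group mean as a bar; the open square is EV replicate 1 of U87. LAMA5 drops from about 50 to 10 FPKM in SNB19 and to about 2 in U87 OE, LAMB3 is highest in SNB19, and LAMA1 is highest in U87 OE.

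The 2 lines were compared through their controls, a comparison that was not used to choose the family, although it rests on the same control libraries. Cell line and control agent (scramble siRNA or empty vector) cannot be told apart in it. LAMA1 entered this fit only through U87, where it is high, and is described without a test. So is LAMA5, whose control values are part of what chose the family. Of the remaining members, 2 were higher and 3 lower in SNB19 at adjusted p below 0.05. Over all 17312 genes tested, 28.1% were higher and 28.8% lower. With library totals in place of trimmed-mean factors the split over all genes moved from 4858 higher and 4985 lower to 6008 higher and 3300 lower, a median shift of 0.35 on the log2 scale.

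Of the alpha chains, LAMA5 was higher in SNB19 by 1.47 on the log2 scale (SE 0.22), and by 1.10 without EV replicate 1. LAMA1, an alpha chain of early embryonic basement membranes, had 1 to 4 reads a library in NC against 68 and 147 in EV. LAMA4, the alpha chain of vascular and mesenchymal basement membranes, was lower with a log2 difference of -2.65 (SE 0.20, adjusted p = 6.24e-06), and -2.52 without EV replicate 1. LAMA2, the alpha chain of muscle and Schwann cell basement membranes, was lower with -1.89 (SE 0.47, adjusted p = 0.00757), and -2.24 without EV replicate 1. LAMA3 passed narrowly at -1.19 (SE 0.43, adjusted p = 0.0395). It was at -1.83 without EV replicate 1 and did not pass without EV replicate 2 (-0.062, adjusted p = 0.873), without NC replicate 1 or without NC replicate 3.

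Among the beta chains, LAMB3 was higher in SNB19 by 2.03 (SE 0.13, adjusted p = 2.63e-06), and by 2.09 without EV replicate 1. It is a chain of the epithelial laminin that anchors epidermis to dermis. LAMB2 was higher by 0.62 (SE 0.11, adjusted p = 0.00141), and by 0.64 without EV replicate 1. LAMB1 (-0.13, SE 0.21, 95% interval -0.60 to 0.35) and LAMC1 (0.12, SE 0.34, 95% interval -0.66 to 0.89) did not pass. Their direction turned on the EV libraries: the differences were -0.49 and -0.46 without EV replicate 1, and 0.33 and 1.05 without EV replicate 2. LAMA3, the alpha chain that pairs with LAMB3 in the epithelial laminin, stayed below 0.3 FPKM in every SNB19 library. Its FPKM rests on 1 gene model of 14678 bases, and shorter and longer LAMA3 isoforms could not be separated.

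The knockdown comparison chose the family through LAMA5. In SNB19, LAMA5 read 51.2, 50.3 and 50.2 FPKM in NC and 10.3, 9.97 and 9.75 in siMEOX2. The groups were far apart and did not overlap, with an SD of 0.567 in NC and 0.262 in siMEOX2. This was a 5.05-fold lower mean, a log2 fold change of -2.41 (SE 0.05), which stayed between -2.44 and -2.23 over the 15 alternatives tried. In reads the change was from 9854 to 12115 counts down to 1964 to 2306. The mean FPKM of MEOX2 was 5.06-fold lower in the same libraries.

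**Figure D3:**
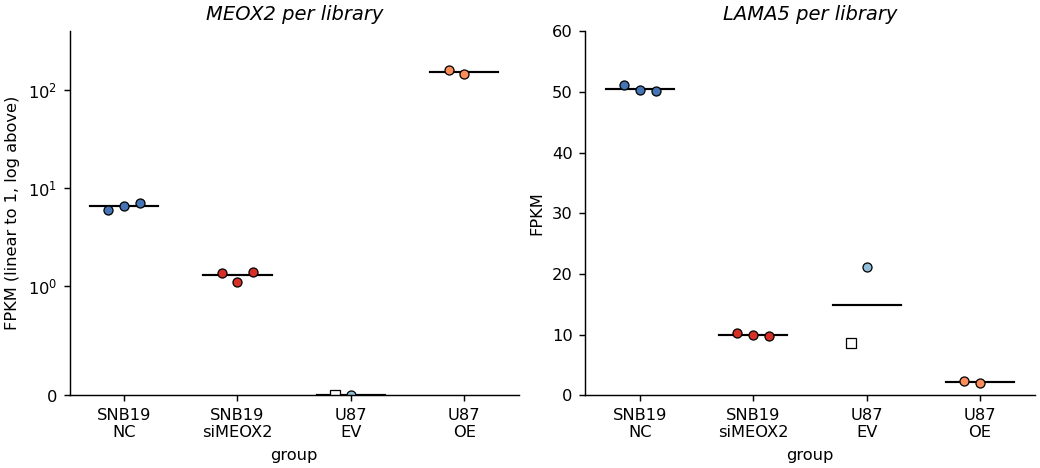
FPKM of MEOX2 (left, axis linear to 1 and logarithmic above) and LAMA5 (right, linear axis) in each library, with the group mean as a bar; the open square is EV replicate 1. MEOX2 is lower in siMEOX2 and higher in OE than in the matching control, and LAMA5 is lower in both.

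LAMA5 lies at chr20:62307955-62367312 on the minus strand of GRCh38 (GENCODE 29). LAMA5-AS1, an antisense gene on the opposite strand, lies within it. The library kit does not keep strand, so reads of the 2 cannot be told apart where they overlap. LAMA5-AS1 had 4 to 11 counts in NC, 1 or 2 in siMEOX2 and at most 3 in U87, against 410 or more for LAMA5.

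In U87, LAMA5 read 8.68 and 21.2 FPKM in EV and 2.37 and 1.96 in OE. The groups did not overlap, and the gap between the EV libraries was wider than the whole OE level. The mean was 6.89-fold lower in OE, a log2 fold change of -2.95 (SE 0.41), and -3.31 against EV replicate 2 alone or -2.45 against EV replicate 1 alone. With an offset for the length trend it was -3.29. LAMA5 was thus lower where MEOX2 was lowered in SNB19 and lower where MEOX2 was raised in U87.

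Within-library ratios do not rest on the depth of the library. LAMA5 and LAMA1 have similar gene model lengths, 14291 and 15872 bases. Their FPKM ratio was 32.7 and 32.2 in the 2 EV libraries, although both genes differed more than 2-fold between them, and 1.50 and 1.34 in OE. The ratio of LAMA5 to LAMC1, the gamma chain of most laminins, was 0.779 to 0.845 in NC and 0.161 to 0.194 in siMEOX2. In U87 it was 0.449 and 0.276 in EV and 0.0499 and 0.0472 in OE.

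The makeup of the alpha chain transcripts shifted with LAMA5. Its share of alpha FPKM was 98.9% ± 0.114 in NC and 93.8% ± 0.243 in siMEOX2 (SD, n = 3). The summed alpha chain FPKM went from 51.1 ± 0.608 to 10.7 ± 0.253. In U87 the share was 84.4% and 87.7% in EV and 42.4% and 37.1% in OE, where LAMA1 held 27.8% and 28.3% and LAMA4 19.6% and 20.8%. The summed alpha chain FPKM was 10.3 and 24.1 in EV and 5.59 and 5.29 in OE. These shares follow largely from LAMA5 itself, which chose the family, and carry no test.

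**Figure D4:**
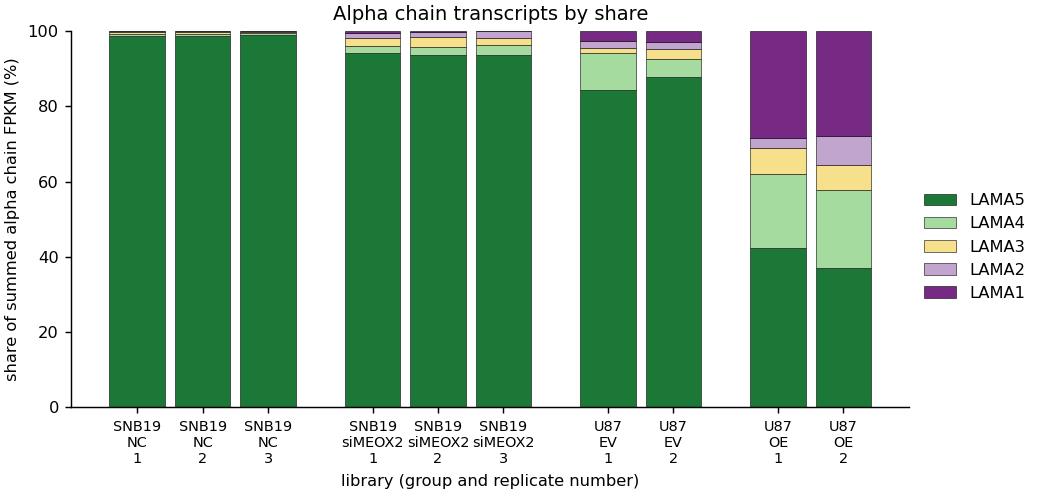
Share of each alpha chain in the summed alpha chain FPKM of each library, in percent. LAMA5 fills over 93% of the bar in all 6 SNB19 libraries, 84.4% and 87.7% in U87 EV, and 42.4% and 37.1% in U87 OE.

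Among the other 8 members in SNB19, 7 passed the filter on low counts. In siMEOX2 LAMB3 was called higher and LAMB1, LAMB2 and LAMC1 were called lower, while LAMA2, LAMA3 and LAMA4 were not called. That is 1 higher against 27.4% of all 15525 genes tested and 3 lower against 28.5%, and nothing is read from these counts, since the comparison also chose the family. The median log2 fold change of the 7 was -0.0014, and that of all genes 0.0063.

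LAMB3 read 114, 114 and 114 FPKM in NC and 164, 194 and 199 in siMEOX2. All 3 siMEOX2 libraries lay above NC, replicate 1 the least, where 27.4% of all genes were called higher. The log2 fold change was 0.63 (SE 0.06), and the share of LAMB3 in beta chain FPKM went from 59.9% ± 0.0475 to 74.8% ± 1.54 (SD, n = 3). The summed epithelial markers were at 0.385 to 0.725 FPKM in NC and 1.05 to 1.14 in siMEOX2. None of these markers reached 1 FPKM in any SNB19 library. CDH1 (E-cadherin), singled out after its values were seen, went from 0.142 to 0.235 FPKM in NC to 0.691 to 0.735. The rise of the sum was mainly that of CDH1, and no rise of EPCAM, KRT5 or KRT14 is read from it. The part of these markers in the LAMB3 values was not tested.

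The broadly expressed beta chains were lower. LAMB2 read 47.3, 45.7 and 45.4 FPKM in NC and 37.5, 36.7 and 36.2 in siMEOX2, a log2 fold change of -0.40 (SE 0.05). LAMB1 read 29.2, 30.4 and 30.7 in NC and 23.3, 26.6 and 27.0 in siMEOX2, or -0.31 (SE 0.05). Neither gene overlapped between the groups, where 28.5% of all genes were called lower. How many genes separate in this way was not counted.

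LAMC1, the gamma chain shared by most laminins, read 61.6, 59.5 and 64.4 FPKM in NC and 53.0, 61.1 and 60.4 in siMEOX2. These libraries overlapped, and its log2 fold change of -0.16 (SE 0.05) lost its call with library totals, with FPKM in limma, in the fit of all 10 libraries and without NC replicate 3.

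The minor alpha chains rested on few reads in SNB19. LAMA4 had 28 to 48 counts in NC and 37 to 44 in siMEOX2 (log2 fold change -0.0014, 95% interval -0.48 to 0.48). LAMA3 had 40 to 55 and 44 to 58 counts (0.11, 95% interval -0.35 to 0.57). LAMA2 had 10 to 23 and 22 to 25 counts (0.45, 95% interval -0.24 to 1.15). LAMA1 had 1 to 4 and 1 to 10 counts and was not tested. None of the 4 replaced LAMA5 in level: together they summed to 0.643 to 0.669 FPKM in the siMEOX2 libraries.

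In U87 the overexpression comparison called 0% of genes, 0 of 14180 at adjusted p below 0.05, with 2643 genes at unadjusted p below 0.05. Even MEOX2 was not called in this edgeR fit (log2 fold change 15.3, adjusted p = 0.123). The lack of a call there does not show that a level was unchanged. DESeq2 called 939 genes and limma on FPKM called 5. Without EV replicate 1, 7052 of 14875 genes were called, and the spread then came from the OE pair alone, with the lone EV library assumed to vary likewise. In that fit 23.3% of genes were called higher and 24.2% lower, and of the 8 members other than LAMA5, LAMA1 was called higher and LAMA3, LAMB3 and LAMC1 lower.

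LAMA1 read 0.265 and 0.659 FPKM in EV and 1.58 and 1.47 in OE, from 68 and 147 to 315 and 341 counts. Both OE libraries lay above both EV libraries, and how many genes separate so was not counted. The log2 fold change was 1.56 (SE 0.39), and 1.197 (SE 0.17) without EV replicate 1. With all 4 libraries it was not called by edgeR, but it was called with DESeq2, with no filter, in the fit of all 10 libraries and with crossed replicate numbers.

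LAMB3 read 19.2 and 24.1 FPKM in EV and 16.1 and 15.9 in OE. Both OE libraries lay below both EV libraries, and how many genes separate so was not counted. The log2 fold change was -0.68 (SE 0.25), and -0.61 without EV replicate 1 and -0.71 without EV replicate 2. LAMB3 differed between the EV replicates by -0.33. With all 4 libraries it was called only in the fit of all 10 libraries.

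The sign of other members in U87 turned on which EV library was used. LAMC1 read 19.3 and 76.6 FPKM in EV and 47.6 and 41.5 in OE, so OE lay between the EV libraries. Its log2 fold change was -0.23 (SE 0.57), but -0.80 without EV replicate 1 and 0.76 without EV replicate 2. LAMA3 likewise went from -0.28 (SE 0.65) to -0.91 and 0.90. LAMB1 was at 0.34 (SE 0.38), -0.021 and 0.84. LAMA2 was at -0.35 (SE 0.64), -0.67 (95% interval -1.29 to -0.043) and 0.16, and its 2 OE libraries differed from each other, at 20 and 63 counts.

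LAMB2 was at 0.065 (SE 0.26), with 20.1 and 26.7 FPKM in EV and 30.1 and 27.3 in OE, and at 0.094 without EV replicate 1. LAMA4 was at -0.23 (SE 0.28), with 1.00 and 1.16 FPKM in EV and 1.10 and 1.10 in OE, and at -0.094 without EV replicate 1. For both genes the 95% intervals spanned 0 with and without that library. Fold changes here use trimmed-mean factors, and FPKM does not. With library totals in place of these factors, U87 fold changes shifted by a median of 0.23 on the log2 scale. LAMA4 was then at 0.022.

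**Figure D5:**
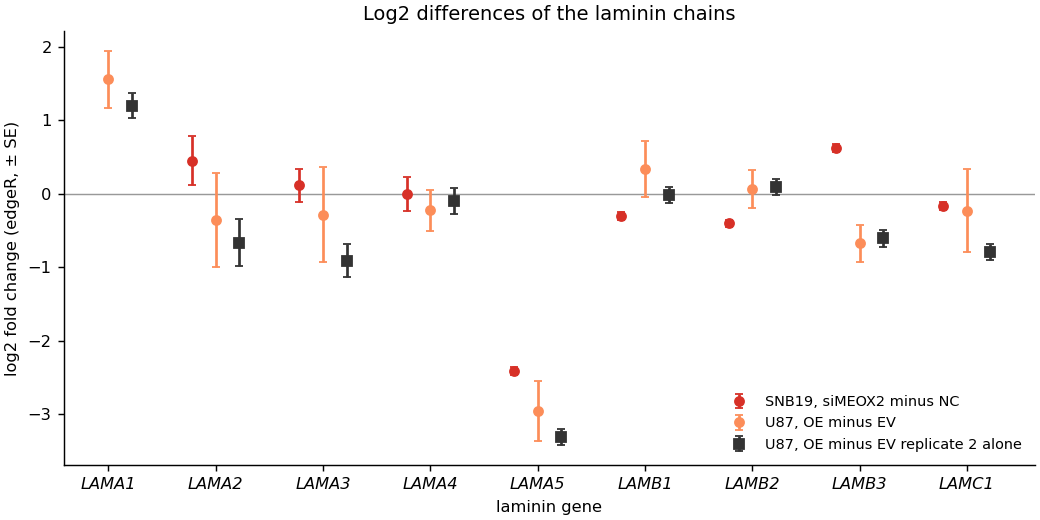
Log2 fold change with SE of the 9 laminin members, for siMEOX2 minus NC in SNB19 (red circles), OE minus EV in U87 (orange circles) and OE minus EV replicate 2 alone (black squares); LAMA1 was not tested in SNB19. LAMA5 lies at -2.41, -2.95 and -3.31, LAMB3 lies above 0 in SNB19 and below 0 in U87, and the U87 errors shrink without EV replicate 1.

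The difference between the 2 effects was tested in 1 fit of all libraries, for the 7 members other than LAMA5 that were tested in both lines. Over all genes 15.7% were called. LAMB3 was the only one of the 7 called, at 1.28 (SE 0.18, adjusted p = 0.00249), which reflects a log2 fold change of 0.63 on knockdown and -0.68 on overexpression. Knockdown and overexpression move MEOX2 in opposite directions, so the LAMB3 estimates ran against MEOX2 in both lines. In the edgeR fit of U87 alone LAMB3 was not called (adjusted p = 0.266). The call of the difference is not by itself a sign of unlike responses to MEOX2. LAMB2 was at -0.49 (SE 0.16, adjusted p = 0.0639) and LAMB1 at -0.67 (SE 0.30, adjusted p = 0.157). With all libraries LAMB2 was called by DESeq2 (adjusted p = 0.000957) and by limma at a pseudocount of 1 (adjusted p = 0.0420). Without EV replicate 1 LAMC1 was at 0.58 and LAMA3 at 0.97, and without EV replicate 2 they were at -0.94 and -0.80. LAMB1 was at -0.34 and -1.17 and LAMB2 at -0.55 and -0.49 in the same settings.

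Genes of the laminin pathway were counted from lists of partners, receptors and enzymes. In SNB19, 11 of the 14 tested basement membrane partners passed, 1 higher and 10 lower in siMEOX2, with a median log2 fold change of -0.59, where 27.4% of all genes were higher and 28.5% lower with a median of 0.0063. COL18A1, the source of endostatin, fell by 1.19, COL4A5, a type IV collagen chain, fell by 1.11, and AGRN (agrin), a heparan sulfate proteoglycan that binds laminin, fell by 1.05. FBLN1 (fibulin 1) fell by 0.94, and COL4A3 rose by 0.97. In U87 without EV replicate 1, of the 11 tested 1 was called higher and 6 lower, where 23.3% and 24.2% of all genes were.

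Of the 15 laminin receptors and their partners, 4 were higher and 9 lower in siMEOX2, with a median of -0.28, beside the same 27.4% and 28.5% of all genes. ITGA3, whose product pairs with the ITGB1 product as a main receptor of the alpha-5 chain, read 83.7, 84.2 and 80.6 FPKM in NC and 37.3, 39.9 and 38.2 in siMEOX2, a log2 fold change of -1.18 (SE 0.05, adjusted p = 3.20e-14). ITGA7 (-1.31), ITGA1 (-1.06) and SDC1 (-1.06), a syndecan, were lower as well, and SDC4, another syndecan, was higher by 1.67. ITGA6 was at -0.28 (adjusted p = 0.000417). BCAM, a membrane protein that binds the alpha-5 chain, was at 0.19 (adjusted p = 0.00585), ITGB4 at 0.21 (adjusted p = 0.0190) and ITGB1 at 0.12 (adjusted p = 0.0345). The calls of ITGB1 and ITGB4 were lost on leaving out 1 library (for ITGB1 any but siMEOX2 replicate 1, for ITGB4 NC replicate 1 or 3 or siMEOX2 replicate 2 or 3). DAG1, which encodes dystroglycan, was at -0.089 (SE 0.05, adjusted p = 0.102).

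In U87, ITGA3 read 165 and 321 FPKM in EV and 84.0 and 80.5 in OE, a log2 fold change of -1.75 (SE 0.37, adjusted p = 0.171), and of -1.98 without EV replicate 1. DAG1 was at -1.24 (SE 0.45, adjusted p = 0.256), and at -1.69 without that library. ITGA6 was at 0.16, ITGB1 at 0.56 and ITGB4 at -0.44 with all 4 libraries, and each changed sign without EV replicate 1. Of the 14 receptors tested there, 7 were then called lower and none higher, beside 24.2% and 23.3% of all genes. BCAM had at most 16 counts in a U87 library, against 1328 to 1895 in SNB19.

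Of the 14 enzymes that build the laminin-binding glycan of dystroglycan, 3 were higher and 7 lower in siMEOX2, with a median of -0.21, again beside 27.4% and 28.5% of all genes. LARGE2, which extends that glycan, was higher by 1.22. GMPPB (-0.79) and RXYLT1 (-0.56) were lower and POMK, the kinase that primes the glycan, was higher by 0.61. Of the 5 tested proteases listed as cutting laminin chains or other matrix proteins, 5 were lower: MMP9 (-3.20), MMP2 (-1.998), BMP1 (-1.66), TLL2 (-1.16) and MMP14 (-0.91), where 28.5% of all genes were lower. MMP2 went from 106, 115 and 113 FPKM in NC to 32.4, 27.9 and 27.9 in siMEOX2. In U87 without EV replicate 1, the 3 proteases tested were all called lower, and of the 13 glycan enzymes 2 were called higher and 5 lower, beside 23.3% and 24.2% of all genes. With all 4 U87 libraries edgeR called no gene of these lists in the fit of U87 alone. ITGA3 was called with DESeq2 (adjusted p = 0.00490), with no filter (adjusted p = 0.00543) and in the fit of all 10 libraries, and DAG1 in the last (adjusted p = 0.0141).

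Between the controls, the receptor gene ITGB4 was higher in SNB19 by 5.32 on the log2 scale and ITGA6 by 2.82, while ITGA3 was lower at -1.87. Without EV replicate 1 the values were 6.26, 2.47 and -2.10.

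The 5 genes whose pattern was most like that of LAMA5, after subtracting each line's mean, were SPEG, a muscle kinase gene (r = 0.996), ITGA3 (0.994), CHD3, a chromatin remodeller gene (0.994), SSC5D, a scavenger receptor gene (0.993), and PYGB, brain glycogen phosphorylase (0.993). The measure is Pearson's r of log2 CPM over 10 libraries among 9801 genes. The 10 points fall into 4 groups and share the EV replicate 1 library, so r mostly compares group means. These are the LAMA5 values that chose the family, so the ranking is a description and carries no test. SPEG went from 10.9 to 11.6 FPKM in NC to 5.33 to 6.13 in siMEOX2, and from 6.03 and 11.1 in EV to 3.86 and 3.72 in OE. A high r does not mean a fall of like size. CHD3 went from 39.7 to 41.4 FPKM in NC to 33.4 to 34.5 in siMEOX2. Its OE libraries (19.0 and 18.2) lay between EV (16.9 and 26.0). PYGB in OE (30.9 and 30.0) was near EV replicate 1 (30.7). SPEG, ITGA3 and SSC5D were lower in OE than in either EV library. Without the subtraction the 5 were PYGB (0.992), TENT5A (0.984), ADGRG1 (0.982), MRC2 (0.981) and TMEM255A (0.978). Of the other members, 4 were abundant enough to be compared: LAMB2 reached 0.584, LAMC1 0.294, LAMB1 0.104 and LAMB3 -0.089 after subtraction.

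Of the summed markers of other cell types in SNB19, the endothelial and epithelial sums moved with the knockdown, the epithelial one mainly through CDH1. Immune markers (PTPRC, AIF1 and CD68) summed to at most 0.163 FPKM in SNB19 libraries, epithelial markers (EPCAM, CDH1, KRT5 and KRT14) to 0.385 to 0.725 in NC and 1.05 to 1.14 in siMEOX2, and mural markers (PDGFRB, RGS5 and ACTA2) to 6.22 to 6.67. Of the 8 glioma and astroglial markers, 6 were at 1 FPKM or more in every SNB19 library, and the list summed to 227 to 229 FPKM in NC and 117 to 120 in siMEOX2. Of the 4 endothelial markers 1 reached 1 FPKM in NC and none in siMEOX2, with sums of 5.24 to 5.75 and 0.815 to 1.24 FPKM. In U87 the endothelial sum was at most 0.897 FPKM, the epithelial sum at most 0.656 and the immune sum at most 0.0922. The mural sum was 4.05 and 8.99 in EV and 3.04 and 3.14 in OE, and the glioma list summed to 753 and 330 in EV and 211 and 207 in OE. The part of these shifts in the laminin values was not tested.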

How the data were processed

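The authors deposited 1 table of raw counts per gene and FPKM values for 10 libraries of SNB19 and U87 glioma cells. Per the submitters' processing notes, HISAT2, HTSeq 0.11.2 and DESeq2 1.26.0 were used with GRCh38, and the annotation and the strand setting of the counting are not given in the sources used here. The deposited FPKM equals the count scaled by gene model length and by the summed counts, which gives the gene lengths. Libraries held 12533775 to 16560324 counts.

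Counts were tested with edgeR 4.0.16 (R 4.3.3; filterByExpr with a minimum count of 10, trimmed-mean factors, quasi-likelihood F test), called at Benjamini-Hochberg adjusted p below 0.05 over all genes tested. Knockdown and overexpression were fitted within their line, and the contrast of the controls and the difference of the effects in 1 fit of 4 groups. Alternatives used DESeq2 1.42.0, limma 3.58.1 on log2(FPKM + 1) and log2(FPKM + 0.1), other scalings, no filter, a replicate block, a length offset and leaving out each library. The pipeline was tested on simulated counts. These had no outlying library, length trend or difference between the lines, so the test does not cover the U87 fit with EV replicate 1. Coordinates are from GENCODE 29, matched on Ensembl ID.

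The members and the lists were chosen with earlier results of these data known. Named by a written rule were all members, MEOX2, the antisense genes, up to 5 of the called genes of each list with the largest fold change in the knockdown, 6 receptors and the 5 genes most like LAMA5; the rule also allowed list genes of the other contrasts, which are not named. CD3E, 1 of the immune markers, was not among the genes analysed here. Some genes are not reported here.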

Additional observations from a re-analysis of the deposited data

Results flagged for a closer look

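The knockdown and overexpression effects on LAMB3 differed by a test of the difference itself. The first minus the second was 1.28 on the log2 scale (SE 0.18, adjusted p = 0.00249, edgeR quasi-likelihood test). The 2 manipulations move MEOX2 in opposite directions. A gene that moves against MEOX2 in both lines therefore also gives a difference away from 0. LAMB3 was higher in 3 of 3 siMEOX2 libraries than in any NC library. It was lower in 2 of 2 OE libraries than in either EV library, but was not called in the edgeR fit of U87 alone (adjusted p = 0.266). How many genes separate in these ways was not counted. The difference of the 2 effects lay between 1.10 and 1.35 over 18 alternatives, with adjusted p of at most 0.0439. It was 1.17 without EV replicate 1. The 2 contrasts also differ in cell line, in starting level of MEOX2 and in agent, which cannot be told apart.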

How the results depend on the processing

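In SNB19 the number of genes called was 8683; it was 1669 by the study's rule (absolute log2 fold change above 1 and unadjusted p below 0.05) and 2725 in 1 fit of all 10 libraries, whose shared spread includes EV replicate 1. In U87 the number called was 0; it was 2160 by the study's rule, 939 with DESeq2, 1863 with no filter, 5 and 5 with limma on FPKM, 4538 in 1 fit of all 10 libraries, 22 with the length offset (added after seeing the data) and 38 to 10616 on leaving out 1 library (7052 without EV replicate 1, 10616 without EV replicate 2). For the difference of the 2 effects it was 2716, and 1018 to 10034 on leaving out 1 library (6495 without EV replicate 1, 10034 without EV replicate 2).

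Same-numbered SNB19 libraries did not deviate together (r = 0.0030, -0.012 and 0.058), so the numbers were not taken as pairs. In U87 same-numbered libraries gave -0.24 and crossed ones 0.24. With 2 libraries a group these values mirror each other by construction, so they cannot decide the pairing. With a replicate block the counts were 8601 in SNB19, 468 in U87 and 698 for the difference of the effects, and 1152 in U87 with crossed numbers (added after seeing the data). The replicate block changed no member's call in SNB19.

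Members with values near 0 changed sign. In SNB19, LAMA4 (-0.0014) was 0.000966 with DESeq2, 0.0012 with RLE factors, 0.074 with library totals, 0.017 and 0.064 with limma at pseudocounts of 1 and 0.1, 0.0056 with the replicate block, 0.048 with the length offset and -0.13 to 0.091 on leaving out 1 library. LAMA3 was -0.018 to 0.31. In U87, leaving out 1 library gave -1.24 to 0.20 for LAMA2, -0.91 to 0.90 for LAMA3, -0.021 to 0.84 for LAMB1, -0.80 to 0.76 for LAMC1, -0.18 to 0.66 for ITGA6, -0.14 to 2.01 for ITGB1 and -1.005 to 0.54 for ITGB4. Limma on FPKM gave 0.094 for LAMA3 (pseudocount 0.1), 0.012 and 0.023 for LAMA4 and 0.19 and 0.21 for LAMC1 (pseudocounts 1 and 0.1), library totals gave 0.022 for LAMA4, and the length offset gave -0.075 for LAMB2. Between the controls, LAMB1 was 0.17 with library totals, 0.29 and 0.30 with limma and -0.49 to 0.33 on leaving out 1 library, LAMC1 was -0.46 to 1.05 and ITGB1 -1.56 to 0.54. For the difference of the effects, LAMC1 was -0.28 and -0.29 with limma, -0.15 with the replicate block and -0.94 to 0.58 on leaving out 1 library, and LAMA3 was -0.80 to 0.97. The causes were not tested. LAMB1, LAMB2 and LAMB3 kept their direction in SNB19 in all 15 alternatives, LAMB1 losing its call in the fit of all libraries (adjusted p = 0.299), as did COL4A3, POMK, BCAM, ITGA6, ITGB1 and ITGB4. Between the controls, LAMA2 lost its call with limma at a pseudocount of 1 (adjusted p = 0.0637), and LAMA3 with library totals, with limma and with the 5 control libraries alone. Depth limits LAMA1 to LAMA4 in SNB19, at 1 to 58 counts a library.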
